A study of Mus musculus with 3186 samples.

Results

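The P-type ATPases are membrane pumps that pass a phosphate group from ATP to themselves during each transport cycle. The genes described here are those of this superfamily other than the calcium pumps, together with the beta subunits of the sodium-potassium and gastric pumps. They were chosen by symbol, with earlier results of these data known, and 33 of the 19937 genes in the count table matched. The table held 3186 single cells sorted from the brains of C57BL/6 reporter mice aged 12 to 15 weeks and read by Smart-seq2, a full-length method without molecular identifiers. The Pdgfrb(BAC)eGFP/NG2dsRed line, in which vascular mural cells carry both reporters, gave 1484 cells on 4 plates. The Cldn5(BAC)eGFP line, which marks endothelial cells, gave 1445 cells on 4 plates, and the Pdgfra-H2BGFP line, which marks a perivascular population and the oligodendrocyte lineage, gave 257 cells on 2 plates. The labels name no animals, so each class of cells counted as 1 sample, no test was run, and the range over plates stands for the spread. Plates of 1 line may share animals, and that range may therefore be technical.

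Cells were grouped by clustering without the 33 genes and named from marker genes. This gave 177 smooth muscle-like, 1158 pericyte-like, 1454 endothelial-like, 76 fibroblast-like and 150 oligodendrocyte-like cells, while 171 cells fell outside these classes. Of the endothelial-like cells, 194 were arterial-like, 708 capillary-like, 288 venous-like and 264 without a zone. All 10 pericyte, 10 smooth muscle, 9 endothelial, 9 fibroblast and 9 oligodendrocyte markers reached 20 CPM (reads of the gene scaled to a common total per pool of cells) in the class they name. The same markers named the classes, so this does not test the names. That level was also reached by 9 of the 10 pericyte markers in smooth muscle-like cells and 8 of the 10 smooth muscle markers in pericyte-like cells. All 8 capillary markers reached it in arterial-like and venous-like cells too, and 8 of 9 venous markers did in venous-like cells. Reads per cell ranged from 99905 to 1606954, with a median of 350339. Marker genes of other classes were also read: Esam, an endothelial marker, reached 754.1 CPM among smooth muscle-like cells and 1342.5 CPM among pericyte-like cells, and Vtn, a pericyte marker, stood at 2648.3 CPM in fibroblast-like cells. A rule for wells with markers of another class planned for this work marked 559 pericyte-like wells (48.3%), a share not taken here as a doublet rate. Esam made up 1342.5 of the 1523.8 CPM of endothelial markers in pericyte-like cells. How many of the 559 wells it marked was not tested. A second rule, written after that result was seen and leaving out markers that a class itself held, marked 52 pericyte-like wells (4.49%) and 17 fibroblast-like wells (22.4%).

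The sodium-potassium pump exports sodium and imports potassium and so maintains the gradients on which excitability and many carriers depend. It is built from a catalytic alpha subunit and a beta subunit needed for its passage to the cell surface. P4-type ATPases, or flippases, move phospholipids to the inner side of membranes, and most of them work with a CDC50 subunit. Atp7a and Atp7b export copper, and the P5-type pumps of the Atp13a family include a transmembrane-helix dislocase of the endoplasmic reticulum and lysosomal polyamine transporters.

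The promoters of 2 genes with very different class patterns are shown, chosen after their levels were seen. Each runs from 250 bases before to 50 bases after the RefSeq start in GRCm38.p6, with CG pairs in capitals. Atp13a5 was read mainly in pericyte-like cells and Atp10a mainly in endothelial-like cells. The Atp13a5 window lies at chr16:29378683-29378982 on the minus strand, and the Atp10a window at chr7:58657952-58658251 on the plus strand.
Atp13a5: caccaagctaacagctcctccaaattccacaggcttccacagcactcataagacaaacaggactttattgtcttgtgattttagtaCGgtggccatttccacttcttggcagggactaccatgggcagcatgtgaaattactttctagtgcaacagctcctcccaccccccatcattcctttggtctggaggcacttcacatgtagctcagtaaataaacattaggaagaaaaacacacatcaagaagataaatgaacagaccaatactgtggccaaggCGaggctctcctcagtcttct
Atp10a: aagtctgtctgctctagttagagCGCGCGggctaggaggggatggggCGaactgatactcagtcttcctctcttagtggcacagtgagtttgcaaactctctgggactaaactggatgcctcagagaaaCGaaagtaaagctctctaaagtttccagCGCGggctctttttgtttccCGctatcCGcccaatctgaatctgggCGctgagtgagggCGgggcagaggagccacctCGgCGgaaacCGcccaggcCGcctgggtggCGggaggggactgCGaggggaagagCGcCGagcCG
The Atp13a5 window held 2 CG pairs and the Atp10a window 20. In the GENCODE M21 annotation the Atp10a gene begins at 58656166, upstream of its window, and that start was not examined. A promoter was found for 20 of the 33 genes, and 4 of these 20 had at most 5 CG pairs, against 20.4% of 14258 genes of the table with a promoter. These counts describe sequence only.

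Of the 33 genes, 19 reached 50 CPM in at least 1 class, 3 reached between 5 and 50 CPM, and 11 stayed under 5 CPM in every class. Among the 11 were Atp1a4, Atp1b4, Atp4a, Atp4b, Atp7b, Atp8a2, Atp8b3, Atp8b4, Atp8b5 and Atp12a. The highest value among them was 3.09 CPM, for Atp8b5 in arterial-like cells. The gastric and colonic proton pump genes Atp4a, Atp4b and Atp12a summed to 1.11 CPM in fibroblast-like cells and to less in the other classes.

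**Figure D1:**
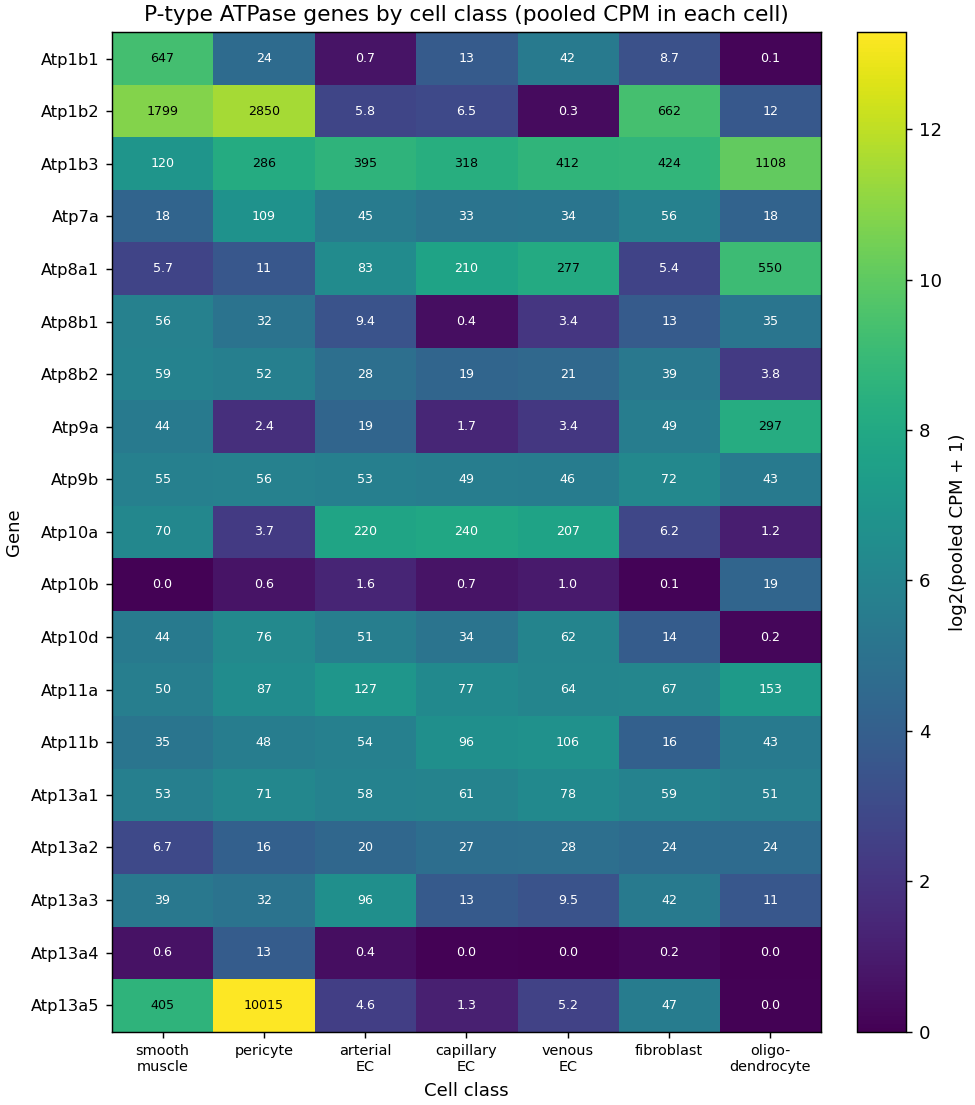
Pooled CPM of 19 genes that reached 5 CPM in a class (rows) in 7 cell classes (columns); each cell prints the CPM and its colour gives log2(CPM + 1). Atp13a5 stood at 10015 CPM in pericyte-like cells, and Atp9b and Atp13a1 lay at similar pooled levels in every class.

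**Figure D2:**
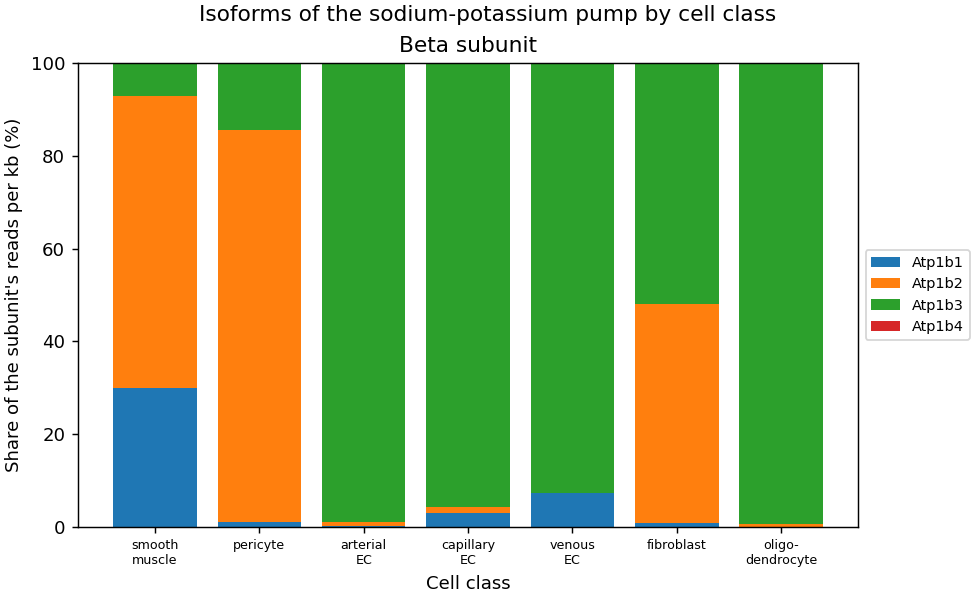
Share of reads per kilobase (y axis, %) taken by each isoform of the sodium-potassium pump's beta subunit in 7 cell classes (x axis). Atp1b2 takes 84.5% of the beta reads in pericyte-like cells, and Atp1b3 takes 99.4% of the beta reads in oligodendrocyte-like cells.

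The beta subunits of the sodium-potassium pump divided the classes. Atp1b2, the beta subunit also known from glia, stood at 1799.3 CPM in smooth muscle-like, 2850.5 CPM in pericyte-like, 4.63 CPM in endothelial-like, 661.5 CPM in fibroblast-like and 11.8 CPM in oligodendrocyte-like cells. Atp1b1 was highest in smooth muscle-like cells at 646.8 CPM, with 502.8 to 772.6 CPM over 4 plates, against 23.6 CPM in pericyte-like cells, with 16.5 to 31.0 CPM. The sub-cluster of pericyte-like cells with the fewest pericyte markers high (60%; 100 cells) held 227.4 CPM, and the other sub-clusters held 0.59 to 6.75 CPM. After thinning each cell to 90000 reads it was read in 87.0% of smooth muscle-like cells (exact binomial 95% interval 81.1 to 91.6%) and 5.79% of pericyte-like cells (4.51 to 7.29%). Within endothelial-like cells Atp1b1 stood at 0.652 CPM in arterial-like and 13.0 CPM in capillary-like cells, against 41.5 CPM in venous-like cells. The capillary-like sub-clusters were uneven, at 5.17, 9.3 and 35.4 CPM, the last in 205 cells. After thinning, 18.4% of venous-like cells held a read of Atp1b1. The arterial-like plates reached at most 2.61 CPM, while the venous-like plates began at 18.9 CPM.

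Atp1b3 was the broadest beta subunit. It stood at 120 CPM in smooth muscle-like, 286.4 CPM in pericyte-like, 345.5 CPM in endothelial-like, 424.5 CPM in fibroblast-like and 1107.7 CPM in oligodendrocyte-like cells. The fibroblast-like and endothelial-like plate ranges overlapped, at 279.1 to 441.8 CPM and 254.8 to 371.7 CPM, so these neighbours in the order did not differ beyond their spread. Per kilobase, Atp1b2 made up 62.9% of beta reads in smooth muscle-like cells, where Atp1b1 took 30.0%, and 84.5% in pericyte-like cells. Fibroblast-like cells held 47.3% Atp1b2 and 51.9% Atp1b3, and without the length correction Atp1b2 was the larger, at 60.4%.

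**Figure D3:**
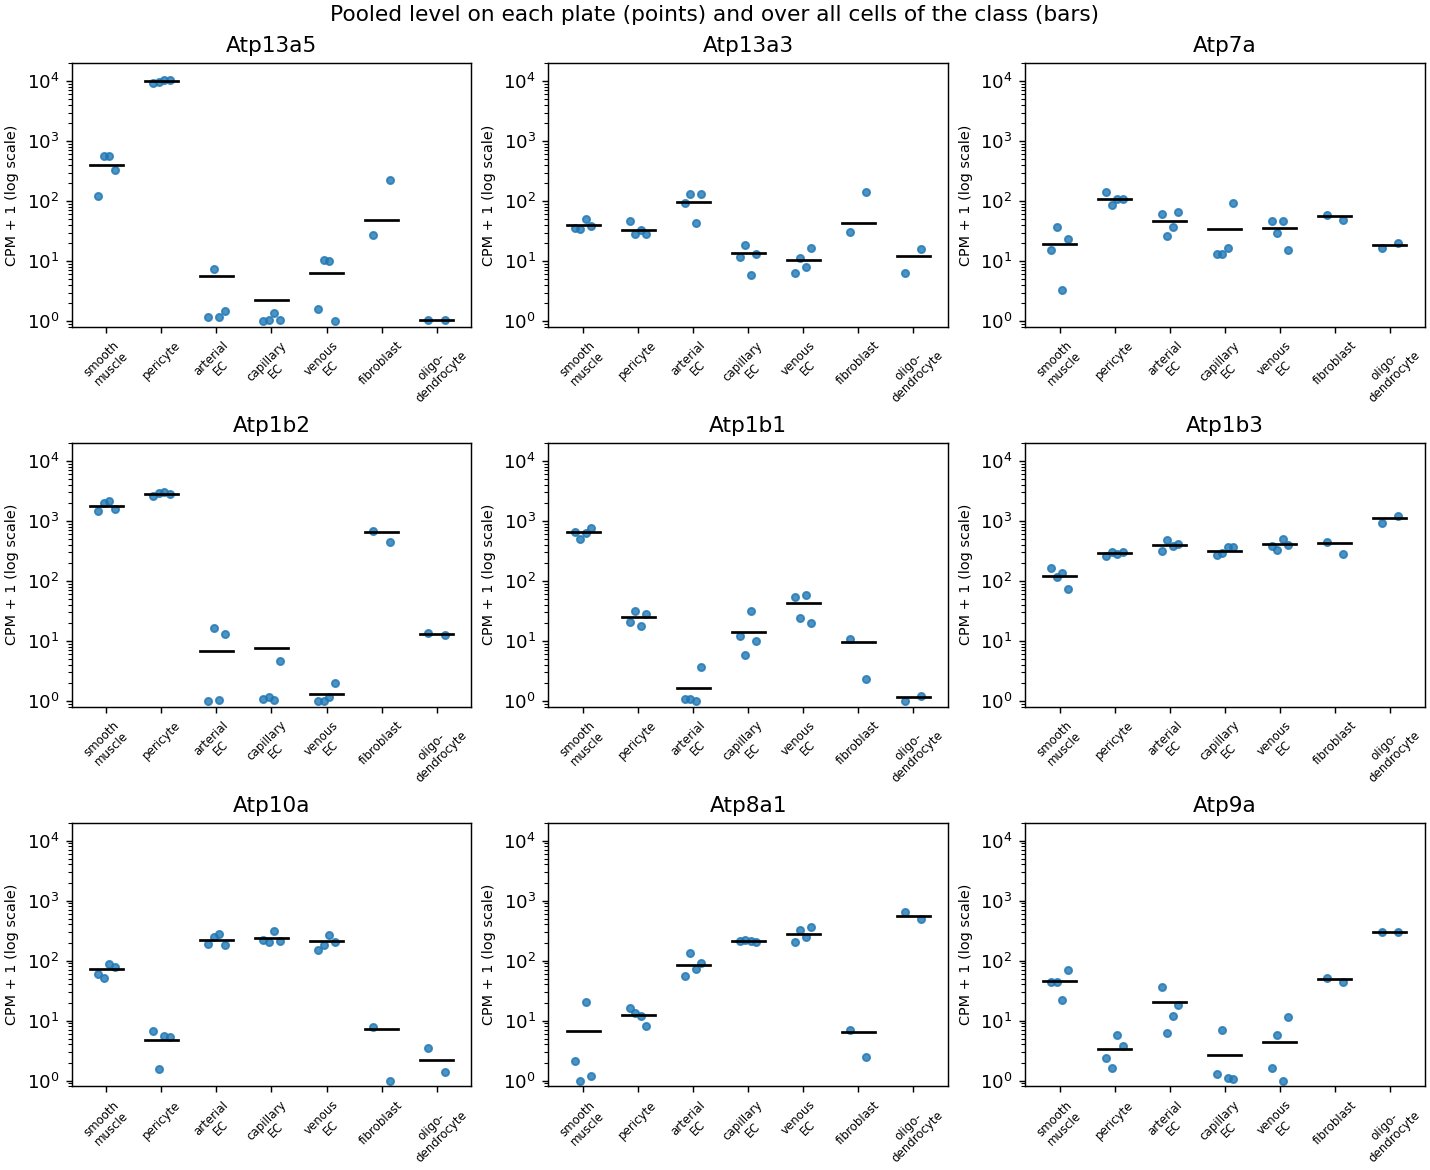
Pooled CPM + 1 on each plate with at least 10 cells of the class (points, log axis) and over all cells of the class (bars) for 9 genes in 7 cell classes. The 4 pericyte-like points of Atp13a5 lie between 9284 and 10543 CPM, above every other point of that gene.

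In the P5 family, Atp13a5 was by far the highest gene in pericyte-like cells, at 2149 of the 2175 CPM per kilobase that the 5 genes summed to. Little is established about its transported substrate. Its gene lies on chromosome 16 (mm10, 29231851 to 29378732, minus strand). Pooled levels were 405.4 CPM in smooth muscle-like, 10015 CPM in pericyte-like, 2.49 CPM in endothelial-like, 47.5 CPM in fibroblast-like and 0.0462 CPM in oligodendrocyte-like cells, the last from 4 reads. Smooth muscle-like plates held 122.7, 555.1, 571.5 and 330.1 CPM, and pericyte-like plates 9284, 9606, 10444 and 10543 CPM. The groups lay far apart on every plate. The 2 smooth muscle sub-clusters differed, at 162.5 and 690.3 CPM, and the 5 pericyte sub-clusters spanned 5832 to 11077 CPM. Fibroblast-like cells held 26.5 CPM on Pdgfra1 and 224 CPM on Pdgfra2, and 38.7 CPM in all without the wells marked by the second rule.

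Atp13a4, the neighbouring gene on the same strand of chromosome 16, was read at 13.4 CPM in pericyte-like cells and at no more than 0.57 CPM in the other broad classes. The pericyte-like level came from few cells, as 3.37% of them held a read after thinning. It ranged from 3.31 to 23.6 CPM over plates and stood at 0.073 CPM in a sub-cluster of 44 cells. Atp13a3, a polyamine transporter, was highest in arterial-like cells at 96.4 CPM, against 9.46 CPM in venous-like cells. The arterial-like plates lay between 42.5 and 132.3 CPM and the venous-like plates between 5.33 and 15.4 CPM, without overlap. Atp13a1, the helix dislocase, ranged only from 50.9 to 71.1 CPM over the 5 broad classes, and Atp13a2, a lysosomal polyamine exporter, from 6.71 to 27.8 CPM. Within pericyte-like cells Atp13a1 spanned 8.54 to 95.3 CPM over sub-clusters, lowest in that of 44 cells.

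Among 24 pools of 1 class on 1 plate, the genes whose log2(CPM + 1) ran most like that of Atp13a5 were Pde4c (Pearson r = 0.976) and Arhgap42 (0.968), out of 4247 genes ranked. For Atp1b1 they were Capzb (0.886), Kcna5 (0.880) and Actn1 (0.879), out of 4011. The pools share plates and cell classes, and these values are descriptions.

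The 15 flippase genes had their highest sums in oligodendrocyte-like and endothelial-like cells, but not every member did. They summed to 445.6 CPM in smooth muscle-like, 438.3 CPM in pericyte-like, 834.4 CPM in endothelial-like, 370.8 CPM in fibroblast-like and 1162.1 CPM in oligodendrocyte-like cells. Per kilobase the sums lay closer, at 120.7 in oligodendrocyte-like and 101.4 in endothelial-like cells. Atp8a1, at 550.4 CPM, and Atp9a, at 297.3 CPM, made up most of the oligodendrocyte-like sum of CPM. Per kilobase their order was reversed, with 38.55 for Atp8a1 and 50.24 for Atp9a. Atp8b1, Atp8b2, Atp9b and Atp10d were highest in mural or fibroblast-like cells. Atp8a1, a phosphatidylserine flippase, stood at 5.72 CPM in smooth muscle-like, 11.2 CPM in pericyte-like, 190.9 CPM in endothelial-like, 5.44 CPM in fibroblast-like and 550.4 CPM in oligodendrocyte-like cells. Along the endothelial zones it stood at 83.2 CPM in arterial-like and 210.3 CPM in capillary-like cells, against 276.8 CPM in venous-like cells. Arterial-like plates reached at most 132.3 CPM and venous-like plates began at 203.7 CPM.

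Atp10a, a phosphatidylcholine flippase, was the most endothelial member. It held 70.4 CPM in smooth muscle-like, 3.72 CPM in pericyte-like, 234.5 CPM in endothelial-like, 6.22 CPM in fibroblast-like and 1.18 CPM in oligodendrocyte-like cells. The 3 zones overlapped over plates, with 219.6 CPM in arterial-like, 240.4 CPM in capillary-like and 207.4 CPM in venous-like cells. Smooth muscle-like plates lay between 50.3 and 88.1 CPM, above the highest pericyte-like plate at 5.58 CPM.

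Atp9a, a flippase-like protein of endosomes, stood at 49.6 and 42.2 CPM on the 2 plates of fibroblast-like cells, against 294.5 and 298.9 CPM in oligodendrocyte-like cells, its highest class. Smooth muscle-like cells held 44.0 CPM and pericyte-like cells 2.42 CPM. Its paralogue Atp9b ranged only from 42.5 to 72.0 CPM over the broad classes. Over the pericyte sub-clusters Atp9b spanned 44.6 to 151.9 CPM, highest in that of 44 cells. Atp10b, at 19.5 CPM in oligodendrocyte-like cells, did not pass 0.719 CPM in another broad class. Atp10d, annotated as a polymorphic pseudogene, ran the other way, with 75.8 CPM in pericyte-like cells and 0.197 CPM in oligodendrocyte-like cells.

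The remaining flippases were spread more widely. Over the 5 broad classes Atp11a ranged from 50.1 to 152.9 CPM and Atp11b from 15.6 to 89.3 CPM. The low end of Atp11b is the fibroblast-like value, which was 17.4 CPM on Pdgfra1 and 0.553 CPM on Pdgfra2, and 5.13 CPM without the wells marked by the second rule. Atp8b1 stood at 56.2 CPM in smooth muscle-like, 32.1 CPM in pericyte-like, 2.81 CPM in endothelial-like, 13.3 CPM in fibroblast-like and 34.9 CPM in oligodendrocyte-like cells. Atp8b2 ranged from 3.81 CPM in oligodendrocyte-like to 58.7 CPM in smooth muscle-like cells. Of the copper pumps, Atp7a stood at 18.4 CPM in smooth muscle-like cells, with 2.32 to 36.3 CPM over plates, against 109.4 CPM in pericyte-like cells, its highest class, with 85.1 to 142.1 CPM.

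Set side by side, pericyte-like over endothelial-like cells had 7 members at least 2-fold higher and 4 lower among the 21 that reached 5 CPM in either class. Over all 11001 genes at that level, 20.0% were higher and 16.5% lower by the same fold. The median log2 ratio was 0.21 for the members and 0.11 for all genes. Among the higher were Atp13a5 (log2 ratio 11.48) and Atp1b2 (8.99), and among the lower Atp10a (-5.64) and Atp8a1 (-3.97). Because the lines were sorted onto separate plates, class and line cannot be told apart except on 3 mural plates with 12, 6 and 11 endothelial-like wells. There 6 of the 7 were higher and 3 of the 4 lower by that fold on every plate. Atp9a, lower when pooled (-0.97), was higher within those plates (0.68 to 2.50). The log2 ratio of Atp13a5 was 7.14 to 8.73 within them. The endothelial-like wells there held 64.7 CPM of Atp13a5 on Mural3 and 47.5 CPM on Mural5, against 0.0996 to 2.85 CPM on the Cldn5(BAC)eGFP plates, and the part of mural RNA in this was not tested.

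Smooth muscle-like and pericyte-like cells shared all 4 plates of 1 line. Over pericyte-like cells, smooth muscle-like cells had 3 of 21 members higher, Atp1b1 (log2 ratio 4.72), Atp10a (3.92) and Atp9a (3.72), each on every plate. Among all 10810 genes 13.0% were higher and 18.4% lower. Lower were 7 members, among them Atp13a5 (-4.62), Atp13a4 (-3.20) and Atp7a (-2.51), and 4 of the 7 were lower by that fold on all plates. Median log2 ratios were -0.66 for members and -0.14 for all genes.

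Fibroblast-like over oligodendrocyte-like cells had 10 of 21 members higher and 8 lower, where 35.9% of 11732 genes were higher and 18.5% lower. On both shared plates 8 of the 10 and 7 of the 8 kept that fold. Among the higher were Atp1b2 (log2 ratio 5.69) and Atp13a5 (5.53), and among the lower Atp8a1 (-6.42), Atp10b (-4.22) and Atp9a (-2.58). Atp10a and Atp8b1 changed sign on Pdgfra2, with log2 ratios of -0.49 and 0.77.

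**Figure D4:**
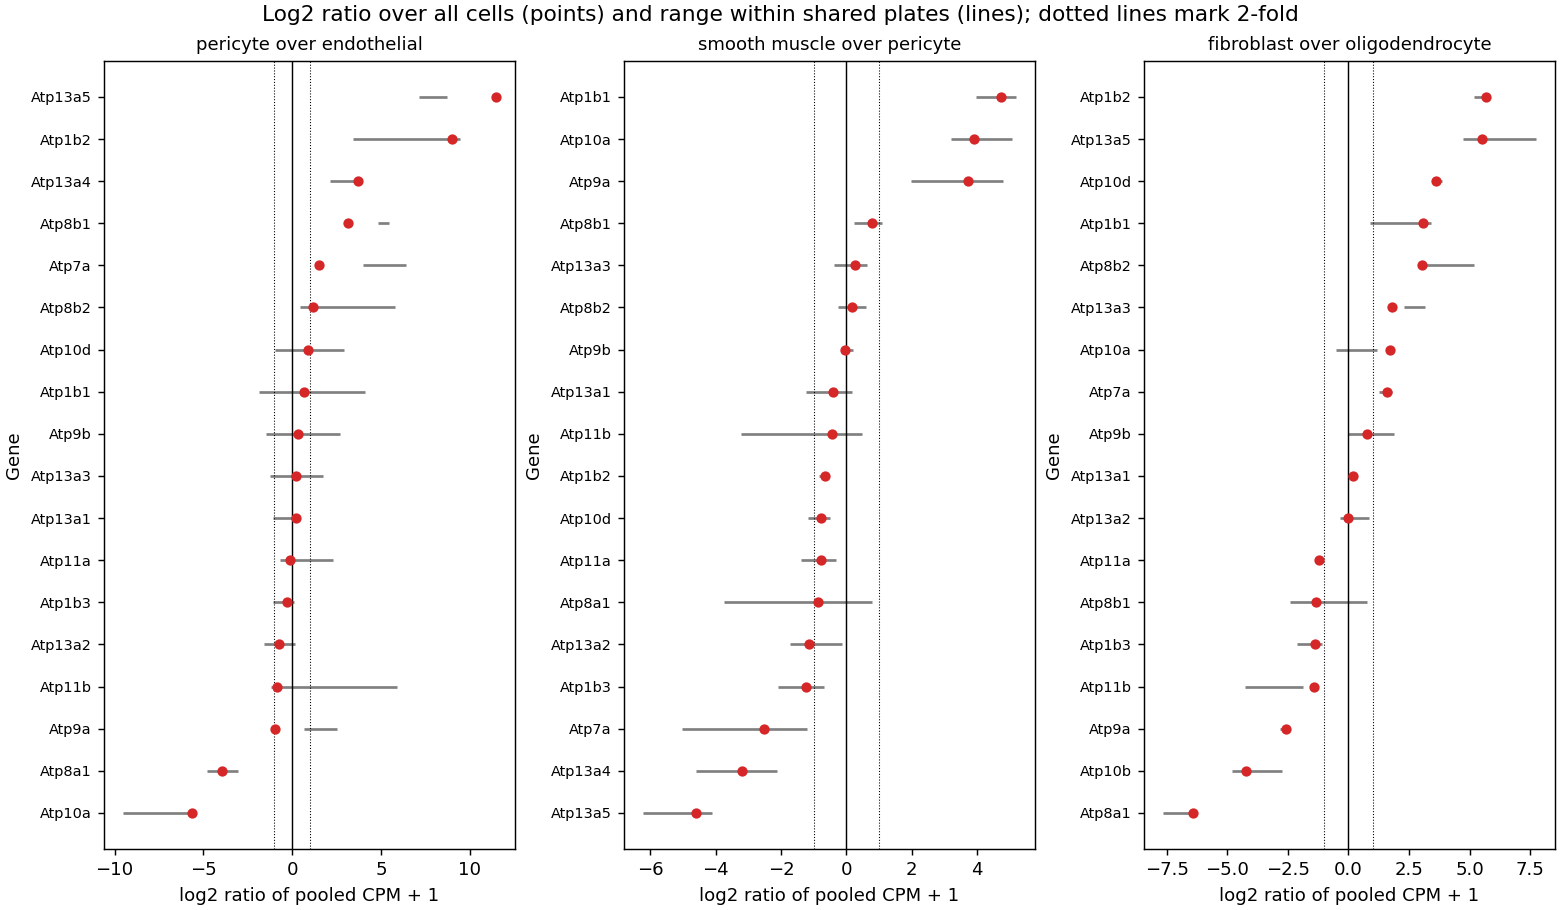
Log2 ratio of pooled CPM + 1 (x axis) for reported members at 5 CPM or more (y axis) in 3 comparisons; points use all cells, grey lines span the plates shared by both classes, and dotted lines mark 2-fold. In smooth muscle-like over pericyte-like cells, Atp1b1, Atp10a and Atp9a lie above 2-fold on all 4 plates.

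Along the endothelial zones fewer members differed. Arterial-like over venous-like cells had 4 of 20 members higher and 2 lower, against 9.48% and 8.39% of 10299 genes. On every plate only Atp13a3 (log2 ratio 3.22) was higher by that fold, and Atp1b1 (-4.69) and Atp8a1 (-1.72) were lower. Capillary-like over venous-like cells had 1 of 18 members higher and 2 lower, against 4.03% and 4.69% of 10068 genes, and none of the 3 kept that fold on all 4 plates.

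Genes that act beside these pumps were followed in 6 lists. Of 7 FXYD genes, small regulators of the sodium-potassium pump, Fxyd1 stood at 374.1 CPM in smooth muscle-like, 58.0 CPM in pericyte-like and 0.294 CPM in endothelial-like cells. Fxyd5 stood at 141.9 CPM, 32.6 CPM and 409.1 CPM in the same classes, and Fxyd6 was highest in fibroblast-like cells at 201.7 CPM. Of the 3 CDC50 subunits Tmem30a was the main one, from 216.4 CPM in fibroblast-like to 500.4 CPM in pericyte-like cells. Scramblases, which undo lipid asymmetry, included Ano6, at 175.8 CPM in fibroblast-like and 4.51 CPM in oligodendrocyte-like cells. All 6 at 5 CPM were higher in fibroblast-like over oligodendrocyte-like cells, where 35.9% of all genes were. In pericyte-like over endothelial-like cells 0 were higher and 2 lower, against 20.0% and 16.5% of all genes. Smooth muscle-like over pericyte-like cells also had 0 higher and 2 lower, against 13.0% and 18.4%. Arterial-like over venous-like cells had 2 higher and 0 lower, against 9.48% and 8.39%. From counts of 6 genes no conclusion is drawn. Of 9 copper genes in the table, 4 were lower and 0 higher in pericyte-like over endothelial-like cells, where 16.5% of all genes were lower and 20.0% higher. Atox1, a copper chaperone, stood at 42.8 CPM and Slc31a1, the copper importer, at 137.7 CPM in pericyte-like cells, against 314.7 CPM and 342.3 CPM in endothelial-like cells. Of 10 polyamine genes 6 reached 5 CPM, and 2 of these were higher and 1 lower in that comparison, against 20.0% and 16.5% of all genes. With 6 genes no conclusion is drawn from these counts. Oaz2 stood at 315.8 CPM among pericyte-like cells, 277.9 CPM among smooth muscle-like cells and 125.9 CPM among endothelial-like cells. Of 8 carriers driven by the sodium gradient 6 reached 5 CPM, and 3 of these were higher and 0 lower, against the same shares over all genes. Slc12a2, the sodium-potassium-chloride cotransporter, held 420.3 CPM among pericyte-like cells and 17.2 CPM among endothelial-like cells. It was highest in oligodendrocyte-like cells, at 628.7 CPM, and stood at 52.8 CPM in smooth muscle-like cells.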

How the data were processed

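Smart-seq2 libraries of single cells were aligned to mm10 with STAR 2.4.2a, per the submitters' processing notes. Neither the counting tool nor its use of strand is known from the labels, so reads of overlapping genes and near-identical paralogues may be shared. The authors deposited raw read counts per gene and cell, used here for every level, and a second table of score values scaled to between 499421 and 501418 per cell and rounded, used only as an alternative. No column was left out. Each cell was matched to its sample by its description, and its plate was read from the column name.

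All cells were clustered, and endothelial and mural cells then again (Leiden, leidenalg 0.10.2), without the 33 genes, the partner genes and the reporters. Clusters were named from marker sets, with naming thresholds settled after the clusters were seen. The members and lists were chosen with earlier results of these data known, as were the printed promoters. Reads were summed over the cells of a class and expressed as CPM, and ratios are log2(CPM + 1). A member counted as higher or lower at a 2-fold ratio of CPM with 5 CPM or more in 1 class. Levels between genes were compared per kilobase of the union of exons (GENCODE M21). Plate values needed 10 cells and within-plate ratios 5 cells of both classes. Shares of cells used cells thinned to 90000 reads. Intervals cover counting error only. The functions for ratios and calls were tested on simulated counts. The planned rule was to describe members at 50 CPM class by class and the rest by range. Some members are not reported here, though counts and family sums include them. No doublet caller was run. The planned rule for mixed wells marked 627 wells in all, and the rule revised after seeing this marked 75. Both were run as alternatives. Alternatives also used TMM (edgeR 4.0.16), other clusterings, minima, folds and single plates left out. Protein features were planned but not run, since no protein table was used here.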

Additional observations from a re-analysis of the deposited data

Results flagged for a closer look

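Atp10a in capillary-like endothelial cells stood at 309.9 CPM on plate EC5 (158 cells), against 200.1 to 215.4 CPM on the 3 other plates, a gap large for 4 values. It was 1 of 52 gene and class values looked at, and chance alone flags about 1 in 20. The arterial-like and venous-like values of Atp10a were also highest on that plate, at 271.3 and 269.7 CPM.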

How the results depend on the processing

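Of 176 counts of members under the alternatives, 152 stayed within 1.5 times the reported count. With no minimum level, the members lower in pericyte-like over endothelial-like cells numbered 7, those lower in smooth muscle-like over pericyte-like cells 16, those higher in fibroblast-like over oligodendrocyte-like cells 17, those higher and lower in arterial-like over venous-like cells 7 and 6, and those higher in capillary-like over venous-like cells 8. A fold of 4 left 2, 4 and 3 lower members in the first 3 comparisons, and 1 in each comparison of zones. A minimum of 20 CPM left 1 higher in arterial-like, and 0 higher and 1 lower in capillary-like, over venous-like cells. The capillary-like counts were the least stable: 0 higher without mixed wells by either rule, 3 higher and 1 lower at clustering resolution 0.5, and 0 higher at resolution 2. The causes were not tested. The revised rule for mixed wells was chosen after seeing the data, and so was leaving out pericyte sub-clusters with under 100% of their markers high, which kept every count within 1.5 times.

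Leaving out 1 plate at a time gave, higher and lower, 7 to 9 and 3 to 4 members for pericyte-like over endothelial-like, 3 to 3 and 7 to 8 for smooth muscle-like over pericyte-like, 9 to 10 and 7 to 8 for fibroblast-like over oligodendrocyte-like, 3 to 5 and 2 to 3 for arterial-like over venous-like, and 0 to 2 and 1 to 3 for capillary-like over venous-like cells. The capillary-like changes came without EC3 or Mural3 (2 higher), Mural4 or Mural5 (0 higher) and EC4 (1 lower).

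Of 1482 log2 ratios of 95 results under the alternatives, 771 counted as the same, 707 as moved and 4 as reversed. Of 95 shares of cells with a read 34 moved, and of 165 isoform shares 19 moved. The 4 reversed ratios were of a value past 2-fold that changed sign. In fibroblast-like over oligodendrocyte-like cells without Pdgfra1 they were Atp8b1 (0.77, and -2.39 without Pdgfra2) and Atp10a (-0.49, and 1.20 without Pdgfra2). In capillary-like over venous-like cells they were Atp13a5 at resolution 0.5 (3.97) and Atp8b1 at resolution 2 (0.49). Atp8b1 in capillary-like over venous-like cells lay under 5 CPM and was not called. The isoform shares moved by at most 2.37 points with the longest transcript and 13.1 points without length correction. No paired test was run, and classes on shared plates were set side by side as within-plate ratios. Low levels rest on few reads, and fibroblast-like values on 2 plates.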

Other observations

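Cells outside the described classes numbered 171 (5.37% of all cells). An unnamed endothelial sub-cluster of 53 cells had all endothelial markers high, and Kcnj8, Pdgfrb and Vtn were among its leading genes. An unnamed mural sub-cluster of 26 cells had all pericyte markers high, and Cldn5, Ly6c1 and Mfsd2a were among its leading genes. Whether these 2 sub-clusters were mixed wells was not tested. The 24 microglia-like cells held 122.9 CPM of Atp13a2 and 33.5 CPM of Atp8a2, a gene under 5 CPM in every described class. They also held 793.3 CPM of Atp13a5 and 834.4 CPM of the perivascular macrophage marker Mrc1. An unnamed mural sub-cluster led by Coch (41 cells) held 1105 CPM of Atp13a5 and 0.111 CPM of Atp1b1. The part of RNA from other cells in these values was not tested.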
